A study of Bos taurus with 16 samples.

Results

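The 5 vehicle control blastocysts of a study of bovine embryos treated with LY2955303, an inhibitor of retinoic acid receptor gamma (RARγ), were compared within and between the 2 experiments they belong to. They are 5 of the 12 blastocyst libraries and of 16 libraries in all, and were chosen by their labels alone. DMSO (3 embryos) was the control of embryos given 10 µM LY2955303 (LY10), and LY_DMSO (2 embryos) was the control of embryos treated from the 2-cell stage (cell2_LY, whose concentration is not given in the labels) or from the 16-cell stage (cell16_LY). All 5 controls were of the wild-type (WT) genotype, were made by in vitro fertilization of oocytes from abattoir ovaries, received the solvent DMSO in place of inhibitor, and were taken as single day 8 blastocysts for SMART-seq. The stage at which LY_DMSO embryos first met the solvent is not stated in the sources used here. No source used here says which embryos shared parents or a culture run, so p-values measure only the spread between these single embryos.

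A day 8 bovine blastocyst holds an outer trophectoderm, which forms the placenta, and an inner cell mass that separates into epiblast, the source of the embryo proper and of pluripotent stem cells, and hypoblast, the source of the yolk sac. Trophectoderm pumps ions and water to open the blastocoel and in ruminants secretes interferon tau, the signal of pregnancy. Retinoic acid, made from vitamin A, acts through the receptors RARα, RARβ and RARγ paired with retinoid X receptors. A control group sets the level against which an inhibitor is read, and the questions here are how far vehicle embryos of the same experiment differ and whether the controls of the 2 experiments stand at the same level.

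The 5 libraries held 10247618 to 17343140 reads on genes, with 12767426, 10571309 and 10247618 in DMSO and 17343140 and 16883427 in LY_DMSO, so the deeper libraries were those of LY_DMSO. At least 1 read fell on 18583, 19413 and 20485 named genes in DMSO and on 18477 and 18421 in LY_DMSO, so the deeper libraries did not detect more genes. Values below are normalized counts, the reads of a gene divided by the library size and scaled to a common library of 13117120 reads, and 14127 named genes with a mean of at least 10 were tested. Mitochondrially encoded genes took 3.81% of named-gene reads in DMSO_3 and 6.14% to 8.51% in the other embryos. Unnamed gene models took 1.56%, 2.02% and 0.986% of reads in DMSO and 0.824% and 0.878% in LY_DMSO. Each control group sits in its own deposited table, so table, experiment and control group cannot be told apart.

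Embryos of the same control group already differed broadly. Between DMSO_1 and DMSO_2 the mean absolute log2 difference over the tested genes was 0.786, and 24.8% of genes differed by more than 1 on the log2 scale. DMSO_3 lay 0.977 from DMSO_1 and 1.12 from DMSO_2, and the LY_DMSO embryos lay 0.778 from each other. Of the 6 pairs across experiments the closest was DMSO_3 with LY_DMSO_1 (0.882), nearer than DMSO_3 was to either embryo of its own group, and the farthest was DMSO_2 with LY_DMSO_1 (1.26). The mean distance was 1.03 between the groups and 0.915 within them, a difference of 0.113 (exact one-sided permutation test over the 10 ways of drawing 3 of 5 embryos, p = 0.2, where the smallest p possible is 0.1). With so few splits the test could not reach 0.05 whatever the data. The first principal component, 47.1% of the variance, ran from DMSO_2 (-114) and DMSO_1 (-63.8) through LY_DMSO_2 (25.7) and DMSO_3 (62.2) to LY_DMSO_1 (89.6). The second, 24.3%, set DMSO_3 (-96.5) apart from the rest.

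**Figure D1:**
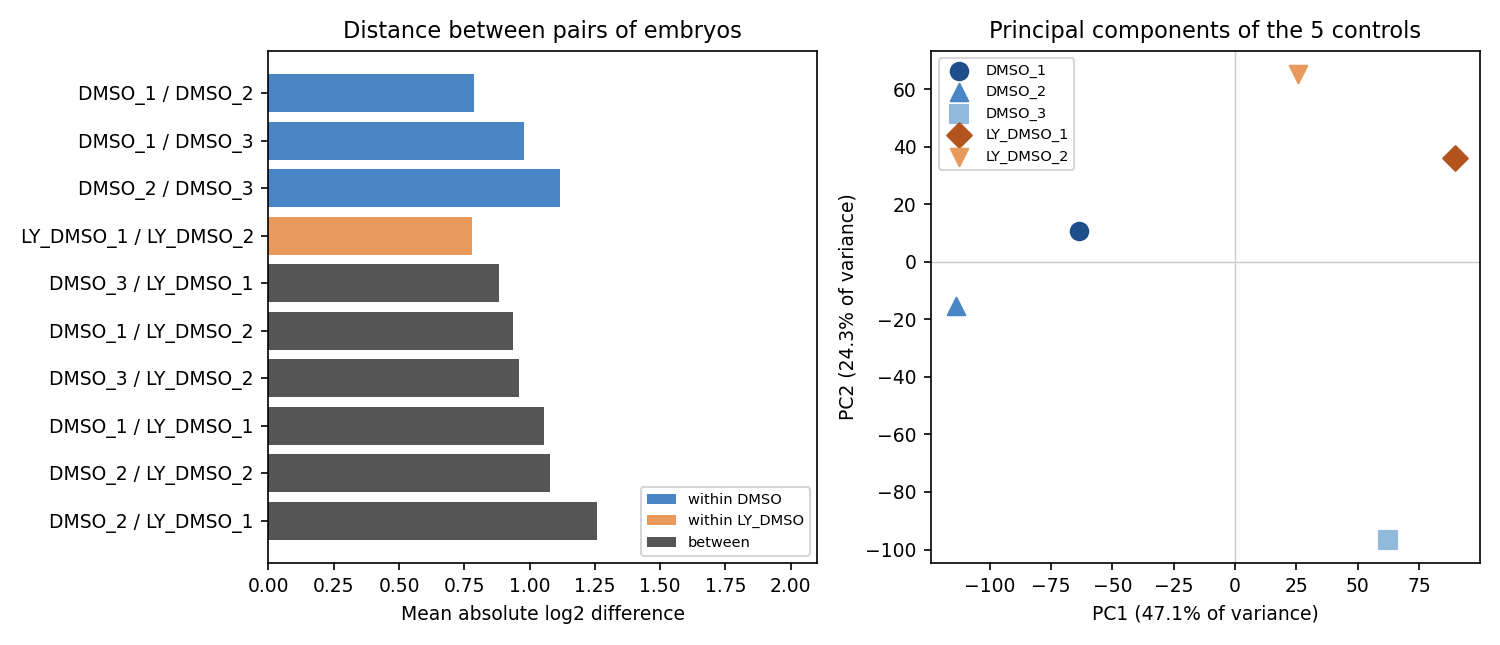
Left, mean absolute log2 difference over 14127 genes for each pair of control embryos, coloured by whether the pair is within DMSO, within LY_DMSO or between the groups. Right, scores of the 5 embryos on the first 2 principal components, with the share of variance on each axis. The pair DMSO_3 and LY_DMSO_1 (0.882) is closer than either DMSO pair that includes DMSO_3.

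Genes of the sex chromosomes divided the embryos across the groups. DDX3Y, an RNA helicase encoded on the Y chromosome, had 0, 0 and 2100 normalized counts in DMSO and 1359 and 0 in LY_DMSO. USP9Y, a Y-linked deubiquitinase, stood at 904 in DMSO_3 and 612 in LY_DMSO_1 and at 0 in the other 3 embryos. ZFY, ZRSR2Y and EIF1AY followed the same pattern, at 835, 404 and 117 in DMSO_3 and 526, 364 and 19.9 in LY_DMSO_1. SRY and RBMY had no read in any of the 5 libraries, which allows up to 3 reads in each. Thus 1 embryo of each control group carried reads of these Y-linked genes, and the summed Y-linked reads were 9045 and 9871 in those and 181 to 225 in the others.

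XIST, the long RNA that silences 1 X chromosome in female cells, had 5275, 6286 and 31.0 counts in DMSO and 2097 and 4424 in LY_DMSO. DMSO_3 was low while LY_DMSO_1 held both Y-linked reads and XIST, at a level between DMSO_3 and the 3 embryos without Y-linked reads. RLIM, an X-linked ubiquitin ligase that promotes XIST expression, ranged from 685 to 1359 with overlapping groups. The median of 415 X-linked genes, relative to that of 9638 autosomal genes and to the mean of the 5 embryos, was 0.42, 0.54 and -0.70 on the log2 scale in DMSO and -0.39 and 0.20 in LY_DMSO, so both embryos with Y-linked reads were the low ones. The 10 largest single-embryo departures found in DMSO_3 repeat this: 3 of the 5 highest genes were DDX3Y, USP9Y and ZFY, and 4 of the 5 lowest were the X-linked MAGEB1, MAGEB16, SCML1 and OTUD6A. MAGEB1, a melanoma antigen family gene, had 1486, 1408 and 0 counts in DMSO and 17.5 and 476 in LY_DMSO. No sex was assigned to any embryo and the part of sex in the results that follow was not tested. With genes of X and Y left out, the number of genes past the threshold below was 913 higher and 518 lower.

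**Figure D2:**
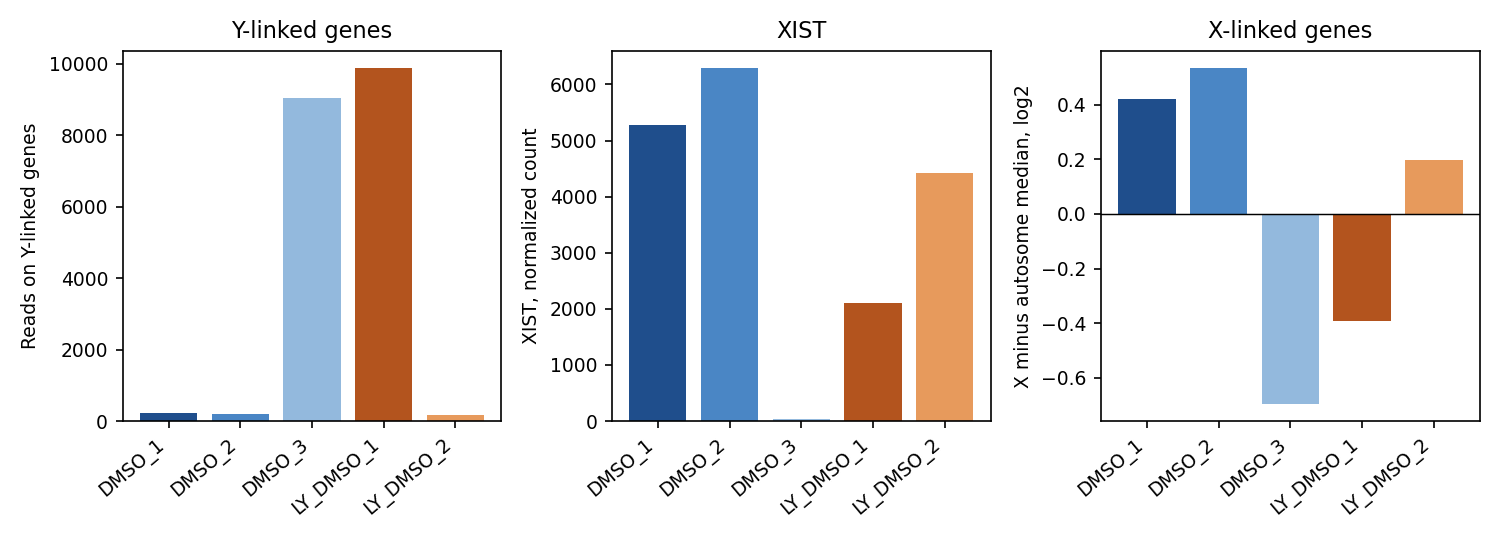
For each of the 5 control embryos, reads on Y-linked genes (left), the normalized count of XIST (middle) and the log2 difference between the medians of X-linked and autosomal genes, each relative to the mean of the 5 embryos (right). DMSO_3 and LY_DMSO_1 have 9045 and 9871 Y-linked reads and the only negative X-linked medians, -0.70 and -0.39, while XIST is at 31.0 in DMSO_3 and 2097 in LY_DMSO_1.

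Between the groups, 900 genes were higher in LY_DMSO and 537 were lower at an unadjusted p below 0.05 and a log2 difference beyond 1, the threshold that the study applies to its treatments. Those are 6.37% and 3.8% of the genes tested, 10.2% together, and they are called higher or lower below. Higher genes made up 62.6% of the calls, and 53% when reads on named genes served as the library size. The test was limma, and its adjusted p, by the Benjamini-Hochberg method, left no gene below 0.05, where 2076 genes (14.7%) had an unadjusted p below 0.05 and the smallest adjusted p was 0.16. The same adjustment gave 0 genes with voom weights, 4 with a replicate block, 11 with sample weights, 433 with all 12 blastocysts in 1 fit and 191 without DMSO_3. Groups did not overlap for 4802 genes, 34% of those tested, 19.4% higher and 14.6% lower in LY_DMSO. The median log2 difference over all tested genes was 0.04. Among genes with a mean count of 10.0 to 31.7 it was -0.31, with 0.885% called higher and 3.79% lower. Among those of 98.4 to 293 it was 0.13, with 9.63% called higher and 4.35% lower. The shares of all genes set beside the lists below do not allow for this dependence on level.

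Leading the genes higher in LY_DMSO was NID1, nidogen of the basement membrane (chromosome 28, 8687270 to 8784202). It had 87.0, 138 and 55.2 counts in DMSO and 1183 and 1236 in LY_DMSO, a log2 difference of 3.78 ± 0.44 (SE, limma adjusted p = 0.16). Every LY_DMSO embryo held several times the level of any DMSO embryo. SLC3A2, the heavy chain that amino acid transporters need at the cell surface (chromosome 29, 41158503 to 41199498), had 554, 307 and 458 against 2520 and 3848. CDH1, E-cadherin of epithelial junctions (chromosome 18, 36046775 to 36117670), had 481, 541 and 913 against 4102 and 3897. KIT, the receptor of stem cell factor, had 222, 315 and 381 against 1518 and 1542. The leading genes were picked for a small p and for groups that do not overlap, so the gap between the groups is given by the choice.

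Among the other leading genes, SEC61A1, the channel through which new proteins enter the endoplasmic reticulum, had 291, 300.1 and 321 counts in DMSO and 1279 and 1383 in LY_DMSO, a log2 difference of 2.13 ± 0.28 (SE). STT3A and DDOST, subunits of the enzyme that attaches sugar chains to those proteins, had log2 differences of 1.92 and 2.41, and FKBP9, a resident prolyl isomerase, 3.22. The small channel subunit SEC61G went the other way, with 24103, 26587 and 21955 counts in DMSO and 9849 and 8925 in LY_DMSO, so the channel's genes did not move together. The remaining leaders were ARG2, the mitochondrial arginase (2.24), the lysosomal genes CTSA (1.89) and PLD3 (2.07), and BSG, a partner of lactate transporters (1.79).

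The genes lower in LY_DMSO were led by B2M, the light chain of class I histocompatibility molecules (chromosome 10, 103095506 to 103103791). It had 9026, 6520 and 9954 counts in DMSO and 2479 and 2700 in LY_DMSO, a log2 difference of -1.69 ± 0.26 (SE, limma adjusted p = 0.166). DUSP5, a phosphatase that switches off ERK kinases, had 355, 491 and 523 against 105 and 70. UCHL1, a deubiquitinase of neurons and germ cells, had 684, 1277 and 631 against 27.1 and 125. S100A4, a small calcium-binding protein, had 157, 446 and 112 against 12.8 and 19.1. In all 4 the lowest DMSO embryo stood above both LY_DMSO embryos, as the choice of genes that do not overlap requires.

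MX1 and HERC6, genes that interferon induces, were also among the lower leaders. MX1 had 222, 104 and 543 counts in DMSO and 15.1 and 5.57 in LY_DMSO, and HERC6 had 92.7, 74.7 and 125 against 0 and 5.57. TXN, the reductant thioredoxin, had a log2 difference of -1.29, ZFAND2A, a zinc finger gene induced by arsenite, -2.10, and ATP6V1G3, a subunit of the proton pump, -1.93. MIR2887-1, the only microRNA gene among the leaders (chromosome 2, 121575106 to 121575162), had 78.4, 149 and 216 against 9.57 and 7.95. Its gene model is 57 bases long, and the reads there were not shown to come from a mature microRNA. BTG1, an inhibitor of proliferation, had 2839, 3463 and 2786 against 1180 and 962. All 24 leading genes stayed past the threshold without any 1 of the 5 libraries. They were picked for the smallest p in these same libraries, so their staying is not independent of that choice.

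**Figure D3:**
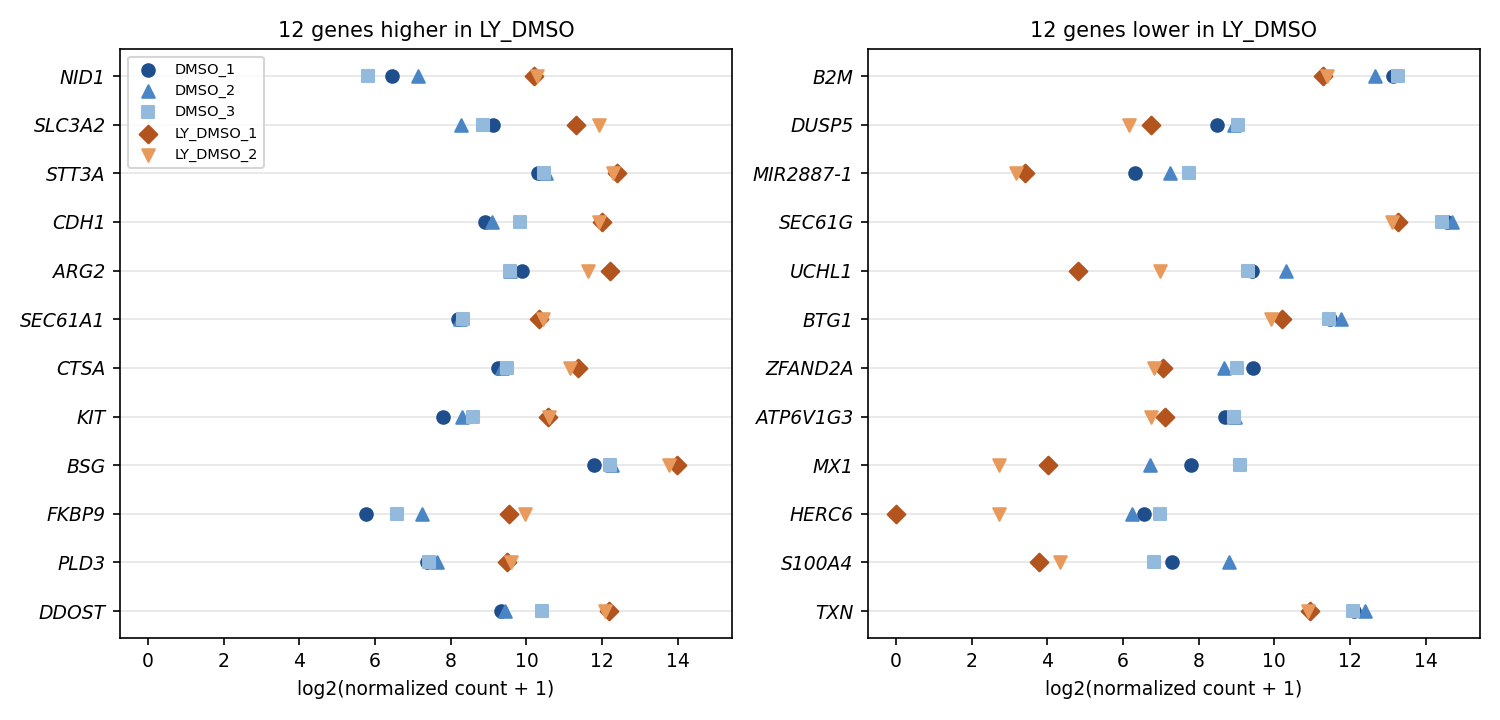
log2(normalized count + 1) of the 12 genes with the smallest p in each direction, 1 point per control embryo (circles, triangles and squares for DMSO, diamonds and inverted triangles for LY_DMSO). The genes were picked for not overlapping, so the gap between blue and orange points is given by the choice, and what the plot adds is the spread within each group, such as 55.2 to 138 for NID1 in DMSO.

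Markers of the 3 lineages were present, unevenly, in every control. KRT8 and KRT18, keratins of the trophectoderm, were abundant per length, at 1582 to 4211 and 849 to 2076 FPKM (reads scaled to gene length and library size). Both stood highest in DMSO_3 and the groups overlapped. GATA3, a transcription factor of trophectoderm, had 4180, 2955 and 4834 counts in DMSO and 1237 and 1522 in LY_DMSO, and was called lower (log2 difference -1.51 ± 0.29, SE). GATA2 (-0.53), TFAP2C (-0.69) and TFAP2A (-0.65) did not pass. CDX2, which maintains trophectoderm, was low, with 22.9, 3.68 and 53.9 counts against 7.17 and 10.3, where 3 reads give 2.39 to 4.04. Of 16 tested trophectoderm genes 3 were called lower (18.75%, against 3.8% of all genes), GATA3, ELF3 and DLX4. None was called higher, against 6.37% of all genes, and 6 of the 16 differences were positive, with TEAD4 the highest (0.70, not called). The list's median log2 difference was -0.47, and it ran from -0.74 to -0.05 without single libraries. The calls of ELF3 and DLX4 were lost without LY_DMSO_2, where the log2 differences were -0.94 and -1.22. Here and below, a call is lost where the unadjusted p or the size of the difference no longer passes. A value in brackets after the library is the log2 difference without that library.

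Secreted trophoblast products varied within DMSO, with a median SD of 1.24 on the log2 scale against 0.52 over all genes. IFNT3, an interferon tau gene, had 269, 145 and 3856 counts in DMSO and 352 and 35.8 in LY_DMSO, with only DMSO_3 high. TKDP1, a trophoblast Kunitz domain protein, had 169, 415 and 74.1 against 15.9 and 31.0, and was called lower at a log2 difference of -2.91 ± 0.75 (SE). PAG2, a pregnancy-associated glycoprotein, had 435, 1519 and 1599 against 426 and 381 and was called lower, a call lost without DMSO_2, DMSO_3, LY_DMSO_1 or LY_DMSO_2 (-1.42 to -1.01). These were the 2 called of 7 tested (28.6%, against 3.8% of all genes called lower), and none was called higher. Members of the pregnancy-associated and interferon tau families share sequence, so reads can be split between near-identical copies.

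Of 17 tested epiblast genes 2 were called higher in LY_DMSO and 2 lower, and the median was 0.09. Each share was 11.8%, against 6.37% of all genes called higher and 3.8% called lower. The pluripotency factors below had reads in all 5 embryos, while FGF4, NODAL and DNMT3L had none in at least 2 of them. POU5F1, the core pluripotency factor OCT4, had 3499, 2617 and 2335 counts in DMSO and 5609 and 3407 in LY_DMSO, overlapping and not called. NANOG, its partner, had 313, 478 and 62.0 against 1056 and 672, higher in both LY_DMSO embryos than in any DMSO embryo (limma adjusted p = 0.307). It was called higher, and the call was lost without LY_DMSO_1 (1.67) or LY_DMSO_2 (2.32). ESRRB, an orphan receptor, was called higher at 345, 399 and 333 against 466 and 1463. The members called lower were FGF2, a growth factor (41.1, 28.2 and 36.4 against 8.77 and 3.98), and KLF4, a reprogramming factor (1959, 2223 and 882 against 885 and 606, overlapping). The FGF2 call was lost without DMSO_1 (-2.24) or LY_DMSO_2 (-1.87), and those of ESRRB and KLF4 each without 4 of the 5 libraries. SOX2 lay at 10.8 to 63.0, PRDM14 at 51.2 to 337 and LIN28A at 25.5 to 60.2, each with overlapping groups. DMSO_3 was the lowest embryo for NANOG, SOX2 and PRDM14.

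Hypoblast genes were the lineage list in which LY_DMSO stood higher, with a median of 0.34. Of 22 tested genes 8 were called higher (36.4%, against 6.37% of all genes) and 1 lower (4.55%, against 3.8%). PDGFRA, the platelet-derived growth factor receptor of hypoblast, had 253, 56.4 and 457 counts in DMSO and 6236 and 1964 in LY_DMSO (log2 difference 4.22 ± 0.86, SE). NID1 belongs to the same list. HNF4A, an endoderm transcription factor, had 55.4, 9.80 and 22.9 against 413 and 89.0, a log2 difference of 2.98. The HNF4A call was lost without LY_DMSO_1 (1.88). GATA6, an early hypoblast factor, was not called, at 4876, 4144 and 2938 against 2659 and 2775. GATA4 was at 3.98 to 20.2, and SOX17 and FOXA2, which define mature hypoblast, had at most 4.90 counts, below or near the level that 3 reads give (2.39 to 4.04). Further members called higher were the basement membrane collagens COL4A1 and COL4A2, fibronectin (FN1) and the lipoprotein gene APOE, and HHEX, an endoderm homeobox gene, was the member called lower (-2.19). SOX17, FOXA2 and GATA4 were not among those called. In whole embryos, more cells of a lineage and more RNA per cell cannot be told apart.

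Lists of other cells were mixed. Of the cumulus markers, AMH had no read in any control, HAS2 and INHBA stayed at or below 4.90 and 16.7 counts, CYP19A1 ranged from 1.35 to 74.7 and FSHR from 49.3 to 111. Other genes of the cumulus list were well above the floor, with GATM (creatine synthesis) at 218 to 971 and CYP11A1 (the first step of steroid synthesis) at 93.3 to 911. The 7 tested cumulus genes gave no call, and the part of cumulus cells in the results was not tested. Of the oocyte markers, ZP2, ZP4, NLRP5 and BMP15 reached at most 13.6 counts, GDF9 40.4, ZAR1 22.1 and ZP3 61.2. OOEP, an oocyte-expressed protein, had more reads, at 462, 859 and 144 in DMSO and 116 and 155 in LY_DMSO, and was not called. DAZL, an RNA-binding protein of germ cells, had 177, 804 and 8.08 counts in DMSO and 0.797 and 0 in LY_DMSO, highest in DMSO_2. Its call (log2 difference -6.35) was the only 1 among 7 tested genes of oocyte RNA (14.3%, against 3.8% of all genes called lower).

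Genes of energy metabolism also differed between the controls. Of 18 tested glycolytic genes 6 were called higher in LY_DMSO (33.3%, against 6.37% of all genes) and 1 lower, with a median log2 difference of 0.59. The glucose transporter SLC2A1 had 1225, 1508 and 814 counts in DMSO and 2720 and 3641 in LY_DMSO (1.46 ± 0.33, SE). GPI, which makes fructose 6-phosphate, had 1678, 1372 and 2055 against 3697 and 4339. PGAM1 and PKM, enzymes of the lower pathway, had log2 differences of 1.35 and 1.72, and PKM ranged from 1802 to 6220 inside DMSO. TPI1, triose phosphate isomerase, was the member called lower, at 538, 726 and 1235 against 242 and 366. That call was lost without LY_DMSO_1 (log2 difference -1.10). LDHA, the lactate dehydrogenase of anaerobic glycolysis, had 7212, 4438 and 6912 against 3294 and 8737, so the LY_DMSO embryos bracketed all DMSO embryos.

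The citrate cycle followed, with 5 of 21 genes called higher (23.8%, against 6.37% of all genes), none lower, and 17 of 21 positive. MDH2, mitochondrial malate dehydrogenase, had 2887, 3019 and 4900 counts in DMSO and 10080 and 8668 in LY_DMSO (log2 difference 1.42 ± 0.30, SE). IDH3G (1.26) and SDHA (1.27) were called too. DMSO_3 stood above the other DMSO embryos in MDH2, IDH3G and SDHA.

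Respiratory chain genes were called at shares close to those of all genes. Of 69 nuclear genes 5 were called higher (7.25%, against 6.37%) and 3 lower (4.35%, against 3.8%), and 41 were negative, at a median of -0.17. The subunits UQCRC1 (793, 479 and 1508 against 4326 and 3335), NDUFV1 (460, 567 and 621 against 1327 and 1462) and ATP5F1B were higher. COX7C, a small accessory subunit of complex IV, was lower, at 12932, 11346 and 8725 against 6000 and 4463. The ATP5F1B call was lost without DMSO_2 (log2 difference 0.995) and the COX7C call without DMSO_1 (-0.943) or LY_DMSO_2 (-0.856), where the difference passed under 1. The 13 protein genes of the mitochondrial genome were all positive, at a median of 0.46. Of these 3 were called higher (23.1%, against 6.37% of all genes), COX1, ND4L and ND5. COX1, the catalytic subunit of complex IV, had 108155, 176406 and 100226 counts in DMSO and 378540 and 249851 in LY_DMSO. Its call was lost under quantile normalization (log2 difference 0.68). The call of ND4L was lost without DMSO_3 (0.91), and that of ND5 without DMSO_1 (0.96), DMSO_3 (0.94) or LY_DMSO_1 (0.73).

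Gene length showed no steady trend (Spearman rho 0.034 over 14127 genes, a description). Genes with the shortest models, 57 to 1533 bases, had a median log2 difference of -0.24, and the 4 groups of longer genes had 0.24, 0.18, 0.05 and -0.02. The 75 tested genes of cytosolic ribosomal proteins, had a median of -0.33, and 59 of them were negative. RPS12, RPL22 and RPL38 were called lower (4%, against 3.8% of all genes) and none higher. RPS12, a protein of the small ribosomal subunit, had 6734, 8095 and 7934 counts in DMSO and 3917 and 3533 in LY_DMSO. Its log2 difference of -1.02 lay at the threshold, and the calls of all 3 were lost without some single library. The part of transcript length in these differences was not tested.

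Of 30 genes of DNA replication 9 were called higher in LY_DMSO (30%, against 6.37% of all genes) and 1 lower (3.33%, against 3.8%), at a median of 0.73, and 26 were positive. FEN1, which trims Okazaki fragments, had 376, 323 and 585 counts in DMSO and 1125 and 1207 in LY_DMSO (log2 difference 1.49 ± 0.34, SE). RRM1, of the enzyme that makes deoxynucleotides, had 1269, 1116 and 1940 against 3591 and 3354. GINS2 and MCM3, of the replicative helicase, had log2 differences of 1.34 and 1.18. CDT1, the licensing factor, was the member called lower, at 35.4, 40.4 and 31.0 against 9.57 and 7.95.

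Of 26 mitotic genes 8 were called higher (30.8%, against 6.37% of all genes) and none lower (against 3.8%), and the median was 0.55. CCNB1, the mitotic cyclin, had 1686, 1819 and 2991 counts in DMSO and 5160 and 6258 in LY_DMSO (1.44 ± 0.31, SE). KIF23, a kinesin of cytokinesis, had 1904, 1964 and 2789 against 5307 and 4485. CDC20, which activates the anaphase-promoting complex, had 422, 387 and 919 against 2223 and 1524. KIF20A had a log2 difference of 1.36, and its call was lost without LY_DMSO_2 (1.24). Within DMSO the median of both lists was highest in DMSO_3, the embryo nearest to LY_DMSO on the first principal component.

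The integrated stress response had a median log2 difference of 1.22, the largest of the lists apart from the Y-linked genes (1.36), whose levels followed single embryos. Of 20 tested genes 8 were called higher (40%, against 6.37% of all genes) and none lower. ATF4, the factor that the response makes, had 3416, 1265 and 2329 counts in DMSO and 6885 and 5332 in LY_DMSO. CHAC1, which breaks down glutathione, had 75.5, 35.5 and 8.08 against 326 and 358 (3.54 ± 0.85, SE), and PPP1R15A, which reverses the response, 36.3, 52.7 and 22.9 against 161 and 260. SLC3A2, PSAT1 and ASNS of amino acid supply, PCK2 and NUPR1 were the other members called. The call of ATF4 was lost without LY_DMSO_1, where the log2 difference was 1.3 against 1.49. DDIT3, the death-promoting factor CHOP, was not called and lay lower, at 1122, 1927 and 1152 against 731 and 656. DMSO_2 was the low embryo for ATF4, and its list median was -0.93 relative to the 5-embryo mean.

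Antioxidant genes were called lower more often than higher. Of 23 tested 7 were called lower (30.4%, against 3.8% of all genes) and 1 higher, although the median of the list was -0.01. GCLC, of the enzyme that starts glutathione synthesis, had 2683, 2738 and 1341 counts in DMSO and 799 and 797 in LY_DMSO. GCLM, its partner subunit, was lower too, a call lost without DMSO_1 (-0.93), LY_DMSO_1 (-1.10) or LY_DMSO_2 (-1.27), and TXN is described above. GPX1, glutathione peroxidase, was the member called higher, at 1782, 3181 and 4455 against 6099 and 6304. Of 19 heat shock genes 1 was called higher (5.26%, against 6.37% of all genes) and 2 lower (10.5%, against 3.8%). STIP1, a cochaperone, had 2651, 1508 and 5132 against 10207 and 9333, and BAG3, a stress-induced cochaperone, 932, 434 and 257 against 80.5 and 154. The BAG3 call was lost without LY_DMSO_1 (-1.60), as was that of HSPA1A (-0.79), which was also lost without DMSO_1 (-0.94).

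Interferon-stimulated genes marked DMSO_3 more than they marked a group. IFI6 had 1.91, 2.45 and 795 counts in DMSO and 0 in both LY_DMSO embryos. IFI27, IFI44L and OAS1Y stood at 185, 271 and 286 in DMSO_3, and at no more than 0.956 in any other control, and ISG15, a ubiquitin-like modifier, at 131 against 0.956 to 6.36. The list's median deviation from the 5-embryo mean was positive in DMSO_3 alone. None of those 5 genes was called. Of 21 tested genes 3 were called lower in LY_DMSO (14.3%, against 3.8% of all genes), MX1, HERC6 and IFIT5. The list's median of -1.02 became -2.28 without DMSO_1 and -0.22 without DMSO_3. IFIT5 had 31.5, 98.0 and 327 against 3.19 and 23.1, a call lost without DMSO_3 (-2.51) or LY_DMSO_1 (-2.08).

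Cholesterol synthesis was another axis of the DMSO embryos. The summed normalized count of its 23 tested genes was 40539, 23033 and 114506 in DMSO and 79688 and 63141 in LY_DMSO. HMGCS1, which feeds the pathway, had 3735, 1635 and 15277 against 8913 and 5099, and MSMO1, a late enzyme, 9282, 4079 and 32048 against 20357 and 18089. In both, DMSO_3 was highest, DMSO_2 lowest and the LY_DMSO embryos between. FDFT1, squalene synthase, was the only member called (log2 difference 1.45), and that call was lost without DMSO_1, DMSO_2, LY_DMSO_1 or LY_DMSO_2 (1.05 to 1.45).

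**Figure D4:**
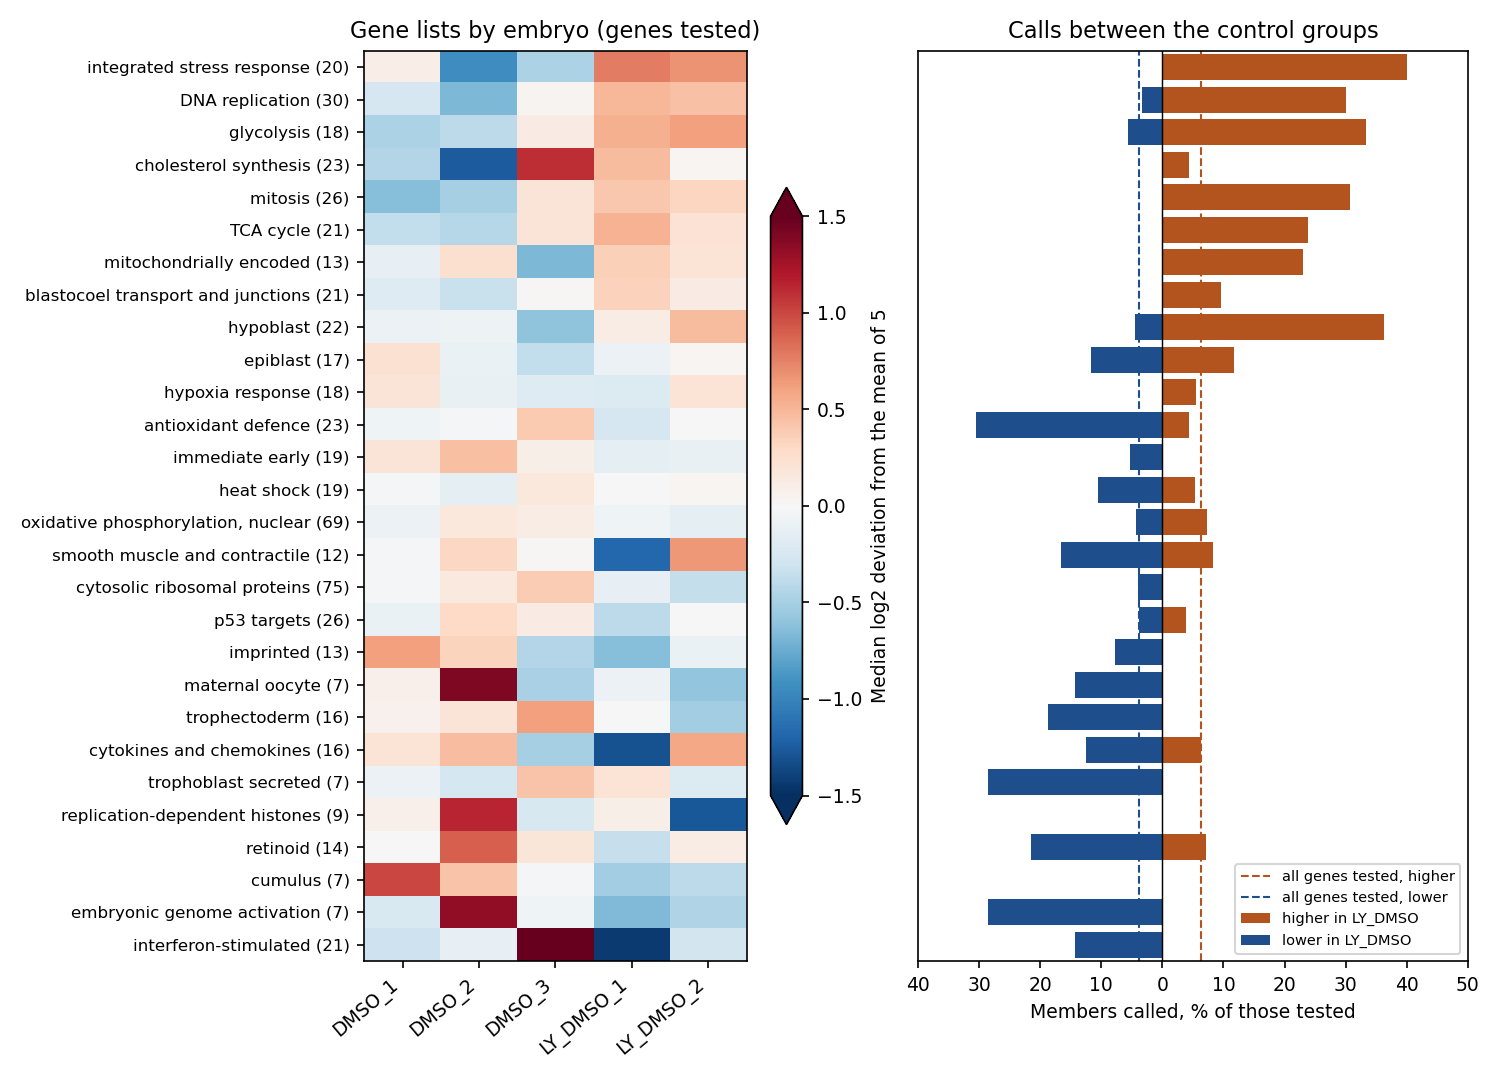
Left, for each gene list with at least 5 tested genes (number in brackets; the Y-linked and inhibitor lists are not drawn), the median log2 deviation of its genes in each embryo from the mean of the 5 embryos. Right, the percentage of tested members called higher (orange) or lower (blue) in LY_DMSO, with dashed lines at the percentages over all genes, 6.37% and 3.8%. Lists are ordered by their median log2 difference, from 1.22 for the integrated stress response to -1.02 for interferon-stimulated genes.

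The retinoid pathway, the target of the inhibitor, was sparse in the controls. RARG, the receptor that LY2955303 inhibits, had no read in 4 of 5 controls and 3.19 normalized counts in LY_DMSO_1, where a count of 0 allows up to 3 reads, or 2.39 to 4.04 normalized counts. RARB had the highest normalized count of the receptor genes, 256, 412 and 102 in DMSO and 167 and 264 in LY_DMSO, with overlapping groups. RARA reached 2.87 to 20.8 and RXRA 2.87 to 19.6. Of 14 tested retinoid genes 3 were called lower (21.4%, against 3.8% of all genes) and 1 higher (7.14%, against 6.37%). Those called lower included RBP4 and CRABP2, carriers of retinol and retinoic acid. RBP4 had 40.1, 123 and 102 in DMSO and 3.99 and 37.4 in LY_DMSO, and CRABP2 had 16.3, 47.8 and 102 against 5.58 and 11.9. RDH11, a retinal reductase, was higher, at 3413, 1710 and 4768 against 7601 and 5792. The calls of RBP4 (-1.07), CRABP2 (-1.77) and RDH11 (0.93) were lost without LY_DMSO_1. That of RBP4 was also lost without DMSO_2 or DMSO_3, that of CRABP2 without DMSO_2, DMSO_3 or LY_DMSO_2 and under 6 other settings, and that of RDH11 without DMSO_1, DMSO_2 or LY_DMSO_2.

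Of 14 genes taken from earlier results of the treatment comparisons in these libraries, 6 were called higher and 6 lower between the controls alone. That is 42.9% in each direction, against 6.37% of all genes called higher and 3.8% called lower. The list was chosen on comparisons that use these same control embryos, so it is no independent sample of genes, and DMSO serves both as the control of LY10 and as 1 side here. MRPL2, a mitochondrial ribosomal protein (chromosome 23), had 322, 419 and 484 counts in DMSO and 1496 and 1357 in LY_DMSO (1.82 ± 0.30, SE), and 1131 to 1650 in LY10. PGD, of the pentose phosphate pathway, had 1530, 1141 and 1335 in DMSO, 8019 and 3787 in LY_DMSO and 4061 to 7489 in LY10. CDC20 ran from 1838 to 2666 in LY10, beside 1524 and 2223 in LY_DMSO. In these 3 genes the LY_DMSO embryos, which had no inhibitor, stood above every DMSO embryo, at levels that overlap LY10. The cell2_LY embryos, treated in the same experiment as LY_DMSO, lay below both LY_DMSO embryos in MRPL2 (346 and 649) and CDC20 (821 and 1444). In PGD they lay between them (4638 and 3932).

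Other genes of the list were lower in LY_DMSO. TAGLN, the actin-binding transgelin, had 133, 175 and 172 counts in DMSO, 0 and 21.5 in LY_DMSO and 0 to 1.65 in LY10. LOC538435 had 1250, 4976 and 4004 in DMSO, 142 and 700 in LY_DMSO and 35.1 to 111 in LY10. DUXA, a homeobox gene of embryonic genome activation, had 235, 750 and 866 in DMSO, 273 and 38.2 in LY_DMSO and no read in any LY10 embryo. The DUXA call was lost without DMSO_2, DMSO_3 or LY_DMSO_2 (-2.13 to -0.96). HOXC13 and HOXD8, homeobox genes of body patterning, had log2 differences of -1.76 and -1.67, and each call was lost without 3 of the 5 libraries. PGK1, an X-linked glycolytic enzyme, and LDHA were not called.

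NID1 is the gene of the list in which LY10 lay between the controls without overlap, at 472 to 721 counts against at most 138 in DMSO and at least 1183 in LY_DMSO. PDGFRA spanned 1140 to 5047 in LY10, beside 1964 and 6236 in LY_DMSO. FDFT1 lay at 7964 to 11896 in LY10, above 7764 and 7781 in LY_DMSO. TPI1 lay at 315 to 432 in LY10, overlapping the 242 and 366 of LY_DMSO. No test was run between LY_DMSO and LY10.

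**Figure D5:**
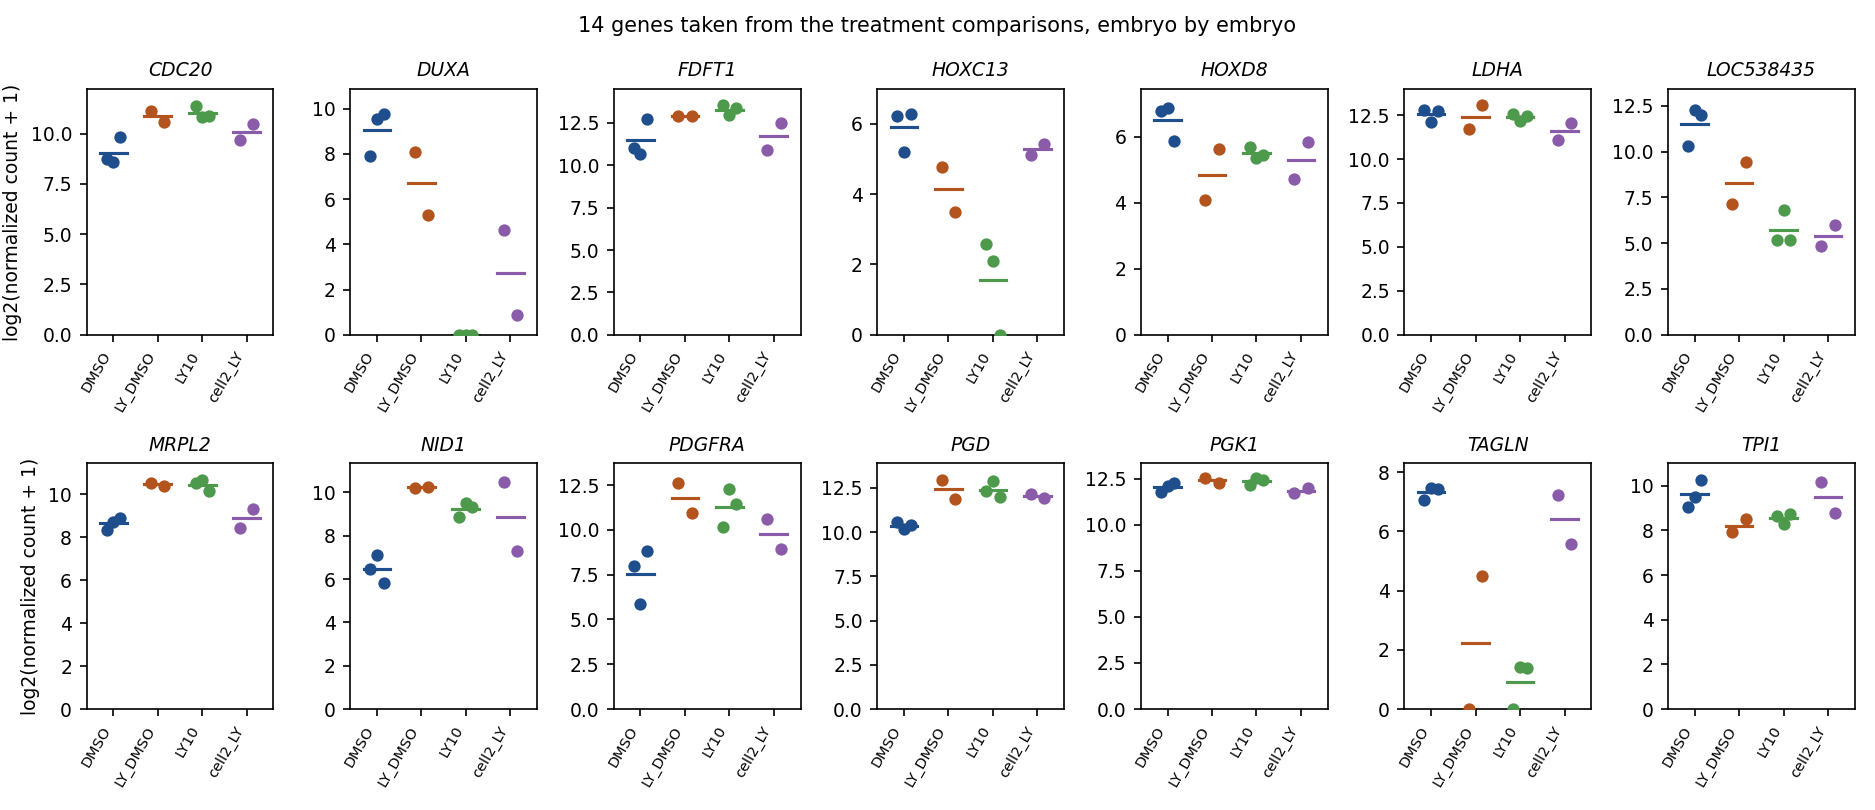
log2(normalized count + 1) of the 14 genes in each embryo of the control groups DMSO and LY_DMSO and of the inhibitor groups LY10 and cell2_LY, all on the scale of the 5 controls. Points are embryos and lines are means of the log2 values. LY_DMSO embryos, which had no inhibitor, lie with LY10 and away from DMSO in MRPL2 (1357 and 1496 against 1131 to 1650 in LY10). The cell2_LY embryos lie lower in that gene, at 346 and 649.

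A second contrast between the same experiments was available in embryos that share no library with the controls, cell2_LY (2) against LY10 (3). Of 13043 genes tested there, 17.6% were called, 11.1% higher and 6.48% lower in cell2_LY. Of the 898 genes called higher in LY_DMSO and tested there, 43.2% were higher in cell2_LY and 8.02% were called higher, against 52.9% and 11.1% of the 12691 genes tested in both. Of the 418 called lower, 62.4% were higher in cell2_LY and 2.87% were called lower, against 6.63% of all. Across those genes the 2 log2 differences had a Pearson r of -0.062 and a Spearman rho of -0.090, a description over genes, which are not independent replicates. The genes that set the controls apart were therefore not set apart in the same direction between the inhibitor groups as a whole. Among the leading genes, PLD3 and MIR2887-1 were called in the same direction in both, PLD3 at 2.07 and 1.65 and MIR2887-1 at -3.82 and -6.99. B2M and DUSP5 went in opposite directions, at -1.69 and -2.38 between the controls and 0.90 and 2.07 between the inhibitor groups.

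Single-embryo departures that follow no group complete the description. Among genes with a DMSO mean of at least 50 on which the other 2 DMSO embryos lay within 1 log2 unit of each other, DMSO_3 was more than 1 above them for 656 of 8636 genes and more than 1 below for 929. The counts were 344 and 599 of 7964 for DMSO_2, and 223 and 294 of 7361 for DMSO_1. The LY_DMSO embryos differed by more than 1 for 784 genes in favour of LY_DMSO_2 and 621 in favour of LY_DMSO_1, of 9890. DMSO_3 alone was high in RARRES2, a gene that retinoic acid induces (0, 0 and 671 in DMSO, 7.97 and 0 in LY_DMSO), and MBD3L3 (719, with 7.17 at most elsewhere). In DMSO_1 the integrin ITGB3 was high (187 against 8.58 and 10.8) and GIMAP4, a GTPase of immune cells, low (0.956 against 454 and 232). DMSO_2 was high in PROX1, a homeobox factor (229 against 19.1 and 20.2), and had no read of PHLDB2 (113 and 72.8 in the others). LY_DMSO_1 was high in NPSR1, the neuropeptide S receptor (1107 against 0.795 in LY_DMSO_2), and GLRB, a glycine receptor subunit (944 against 7.16). LY_DMSO_2 was high in SOSTDC1, an antagonist of BMP and WNT signals (964 against 1.59), and KRT6A (271 against 0). SLC2A5, the fructose transporter, split both groups, with 1322, 27.0 and 4825 counts in DMSO and 4813 and 68.4 in LY_DMSO.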

How the data were processed

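Single blastocysts were sequenced by SMART-seq. The study used fastp, HISAT2 2.0.5 (its methods also name STAR), featureCounts 1.5.0-p3, and StringTie 1.3.3b, some of these from the submitters' processing notes, and the genome build is not given in the sources used here. The authors deposited FPKM per gene in 2 tables, of 38959 genes (DMSO and LY10) and 37429 genes (LY_DMSO, cell2_LY and cell16_LY). Columns with the authors' own log2 fold changes, p-values and adjusted p-values were not used. The 36284 named genes were matched by gene ID and had identical length and position in both tables, and 2675 and 1145 unnamed models were left out. Positions equal RefSeq ARS-UCD2.0 for 35799 of the 36219 genes found there.

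FPKM and gene length gave back whole reads for 100% of values, within 0.02 reads. Each gene was then scaled to a library of 13117120 reads (the geometric mean over the 5 controls). Genes with a mean of at least 10 were tested as log2(normalized count + 1) with limma 3.58.1 (R 4.3.3; empirical Bayes with a variance trend), coded LY_DMSO minus DMSO. Fold changes on this scale understate those of low genes. limma takes the place of the study's count model, which was not run on the recovered reads. A call needs an unadjusted p below 0.05 and an absolute log2 difference above 1, and adjusted p-values are Benjamini-Hochberg over all tested genes. Distances between libraries were compared by an exact permutation test. The limma test was checked on simulated counts drawn independently for each gene, with the same relative scatter for all genes. That check does not cover embryos that differ in many genes together. Other steps ran in Python 3.11.15 (pandas 2.3.3, numpy 2.4.6, scipy 1.17.1; figures by matplotlib 3.10.9). Floors of 3 reads cover counting error only, and reads carry no molecular identifiers.

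The genes named are the 12 with the smallest p in each direction (mean of at least 50, groups not overlapping, no LOC symbol), up to 4 called members of each list with its highest and lowest member, the cell type markers, the Y-linked, XIST and inhibitor lists, and the genes departing most in 1 embryo. Other genes named in the text (such as COL4A1, PSAT1, HMGCS1, MSMO1, IFI27, ISG15 and ZSCAN5B) fall outside this rule and were picked with their values in view. The members and the lists were chosen with earlier results of these data known. Alternatives covered pseudocount, filter, scaling, weights, a replicate block, a fit of all 12 blastocysts, genes of X and Y left out and each library left out. No sequence is printed.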

Additional observations from a re-analysis of the deposited data

Results flagged for a closer look

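The difference between the control groups was set against that between the inhibitor groups, cell2_LY minus LY10, in 1 limma fit of all 12 blastocysts, a comparison chosen after seeing the data. Of 13724 genes, 1068 had an adjusted p below 0.05 for the difference of the 2 log2 differences (7.78%), with 782 higher for the controls and 286 lower. The 24 leading genes and the 14 taken from the treatment comparisons, 37 in all, were looked up, and 27 of them passed, with adjusted p from 0.0111 to 0.0492. They had been picked on the control difference, which enters this test, so their passing is not independent of that choice.

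Of the genes higher in LY_DMSO, the difference of the 2 log2 differences was 5.75 for PDGFRA, 4.12 for NID1, 3.61 for KIT, 3.47 for SLC3A2, 3.39 for MRPL2 and 3.11 for ARG2. It was 3.10 for CDH1, 3.02 for FDFT1, 2.73 for CDC20, 2.69 for FKBP9, 2.40 for PGD, 2.37 for DDOST, 2.05 for STT3A and 1.43 for SEC61A1.

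Of the genes lower in LY_DMSO, it was -10.5 for TAGLN, -7.20 for HERC6, -6.93 for MX1, -5.46 for HOXC13, -4.45 for DUSP5, -3.66 for S100A4 and -3.39 for ZFAND2A. It was -2.60 for B2M, -2.43 for BTG1, -2.32 for TPI1, -1.94 for TXN and -1.64 for SEC61G. MIR2887-1 had 3.19, since it was lower in both contrasts and more so between the inhibitor groups, where LY10 had 1504, 624 and 708 normalized counts and cell2_LY 9.40 and 3.39.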

How the results depend on the processing

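The number of genes called higher in LY_DMSO was 1356 with the replicate block and ran from 559 to 1338 without single libraries. The number called lower was 327 at a mean of at least 50, 297 on log2(FPKM + 1), 354 with voom weights, 923 with sample weights and 1251 with the replicate block, and ran from 337 to 1226 without single libraries. Adjusted p-values fell below 0.05 for 11 genes with sample weights, 4 with the replicate block and 433 with all 12 blastocysts in 1 fit, and for 0 to 191 without single libraries, 191 being the number without DMSO replicate 3. Between the inhibitor groups 759 genes were higher on log2(FPKM + 1) and 725 to 1538 without single libraries, and 520 were lower with reads on named genes as library size and 584 to 1391 without single libraries. Without single libraries the list medians ran from -2.28 to -0.22 for interferon-stimulated genes, from -1.97 to 0.57 for cytokines and from -0.88 to 0.54 for smooth muscle genes. LDHA changed sign without LY_DMSO replicate 1 (0.53), and ran down to -0.88. The cause was not tested for any of these. All 90 list medians under 3 other scalings moved by less than the median SD of the list's genes within DMSO. That is a loose limit, and it is not a spread of list medians. Under quantile normalization the median moved from -0.44 to -0.08 for oocyte genes and from -1.02 to -0.65 for interferon-stimulated genes. Medians near 0 changed sign for epiblast (0.09 to -0.03) and hypoxia response genes (0.05 to -0.05). Of 100 named genes 54 kept their side of the threshold under every alternative. Of 1788 gene values under alternatives, 1620 kept it, 167 lost the call and 1 changed sign.

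The replicate numbers are shared by 2 pairs of single embryos. Over genes, the deviations of same-numbered embryos from their group means correlated at -0.107 and 0.267. In a group of 2 embryos the deviations mirror each other, so these values could not show whether embryos were paired. No source used here pairs them, and the main test did not use the numbers. The replicate block among the alternatives did use them, so its counts assume a pairing that no source used here gives. With 2 embryos in LY_DMSO, leaving 1 out assumes that the other varies like DMSO. The distance between groups minus that within ranged from 0.0300 without LY_DMSO replicate 1 to 0.300 without DMSO replicate 3.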

Other observations

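Of 7 tested genes of embryonic genome activation, 2 were called lower in LY_DMSO (28.6%, against 3.8% of all genes), LEUTX and DUXA, and none higher. LEUTX, a homeobox gene of that stage, had 2.87, 79.6 and 887 normalized counts in DMSO and no read in either LY_DMSO embryo, at least 233-fold lower with a floor of 3 reads over the group. The bound was 30.6-fold without DMSO_3 and 388-fold without DMSO_1. ZSCAN5B had 0, 8.58 and 83.5 against 0 and 0, and was not called. ZSCAN4 lay the other way, at 204, 84.5 and 197 against 434 and 246, and was not called. The LEUTX call was lost without DMSO_2, DMSO_3, LY_DMSO_1 or LY_DMSO_2 (-5.95 to -4.24).

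Of 21 genes of the blastocoel wall 2 were called higher in LY_DMSO, CDH1 and CLDN4, and none lower. That share is 9.52%, against 6.37% of all genes. CLDN4, a claudin of tight junctions, had 533, 724 and 734 counts in DMSO and 1535 and 1880 in LY_DMSO. Of 12 tested contractile genes 1 was called higher (8.33%, against 6.37% of all genes) and 2 lower (16.7%, against 3.8%). MYL9, a myosin light chain, was higher (275, 195 and 90.3 against 724 and 663), while TAGLN and ACTG2 were lower. The ACTG2 call was lost without DMSO_1, DMSO_2 or LY_DMSO_1. Of 26 tested p53 targets 1 was called higher (3.85%, against 6.37% of all genes) and 1 lower (3.85%, against 3.8%), shares no larger than or close to those of all genes. CDKN1A, the p53-induced inhibitor of cell division, was lower, at 207, 532 and 292 against 74.1 and 118. SFN, another p53 target, was higher, at 206, 105 and 831 against 1031 and 1342. The CDKN1A call was lost without LY_DMSO_1 (log2 difference -1.43), and the SFN call without DMSO_1, DMSO_2, LY_DMSO_1 or LY_DMSO_2.

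Cytokine genes gave 1 call higher and 2 lower of 16. IL18 had 3702, 5726 and 1520 counts in DMSO and 604 and 1821 in LY_DMSO, with overlapping groups. CXCR4, a chemokine receptor, had 28.7, 41.7 and 5.39 and no read in LY_DMSO, at least 21.9-fold lower with the same floor. CCL24 had 2.87, 4.90 and 8.08 against 88.5 and 27.0. All 3 calls were lost without LY_DMSO_1, at -0.81 for IL18, -4.25 for CXCR4 and 2.23 for CCL24. That of IL18 was also lost without DMSO_1 (-1.49) or DMSO_2 (-1.18), and that of CXCR4 also without DMSO_1 (-4.03) or LY_DMSO_2 (-4.25). Hypoxia response (18 tested), imprinted (13), immediate early (19) and histone genes (9) gave 1, 1, 1 and 0 calls, P4HA2 higher and MEST and EGR1 lower, where 6.37% of all genes were called higher and 3.8% lower. The P4HA2 call was lost without LY_DMSO_1, that of MEST without DMSO_1, DMSO_2 or LY_DMSO_1, and that of EGR1 without DMSO_1, DMSO_2, LY_DMSO_1 or LY_DMSO_2.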
